A study of Mus musculus with 24 samples.

Results

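The transcripts of 7 Krüppel-like factor genes, Klf2, Klf3, Klf4, Klf6, Klf7, Klf10 and Klf13, were followed in lymphoid progenitors of mouse bone marrow. The members were taken by gene symbol as members of 1 transcription factor family, and all 7 were found among the 24421 genes counted in each library. Poly(A) RNA had been sequenced from 2 sorted populations, common lymphoid progenitors (CLPs), which were Lin-IL-7R+ cells, and progenitors of B cells, gated as IgM-B220+IL-7R+, in 4 genotypes, with 3 libraries in each of the 8 groups. The genotypes, labelled PLCgamma1+/+PLCgamma2+/+, PLCgamma1-/-PLCgamma2+/+, PLCgamma1+/+PLCgamma2-/- and PLCgamma1-/-PLCgamma2-/-, are written here as Plcg1+/+Plcg2+/+ (control), Plcg1-/-Plcg2+/+, Plcg1+/+Plcg2-/- and Plcg1-/-Plcg2-/- (double-deficient). Both genes encode phospholipase C gamma enzymes, which turn receptor signals into calcium and diacylglycerol signals. The Plcg2 deletion was germline, whereas the floxed Plcg1 allele was removed by MxCre, a Cre transgene driven by the interferon-inducible Mx promoter. Every group, the control included, came from young adult donors that carried MxCre and the Rosa-YFP reporter on a mixed 129xC57BL/6 background and had been given poly(I:C). Their bone marrow was given to CD45.1+ congenic hosts, wild type and lethally irradiated, from which CD45.2+ donor cells were sorted weeks later. The sample titles carry 12 identifiers, each shared by 1 CLP and 1 B cell progenitor library, which were read as the 12 recipients. How many donors stood behind the 3 recipients of a genotype is not stated in the sources used here, so the tests measure the spread between recipients.

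Krüppel-like factors bind GC-rich and CACCC-type DNA through conserved C-terminal zinc fingers, and members differ in whether they mostly activate or repress. KLF2 is known for holding lymphocytes in a quiescent state and for maintaining homing receptors such as S1PR1, and its gene is induced by FOXO1 and by the MEK5-ERK5-MEF2 route. KLF4 restrains the cell cycle, KLF6 and KLF10 belong to the genes induced rapidly by growth factors and stress, KLF3 is a CtBP-recruiting repressor, and KLF13 controls chemokine and growth-related genes in lymphocytes.

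The libraries held 1479582 to 33219995 reads on genes. The share of reads on no gene was 17.9% to 45.2% for CLPs but 59.9% to 87.3% for B cell progenitors, so population and this share cannot be told apart. Double-deficient CLPs, at 17.9% to 23.5%, lay below control (24.8% to 29.8%) and Plcg1+/+Plcg2-/- CLPs (25.9% to 45.2%). Double-deficient B cell progenitors, at 60.3% to 63.0%, lay below Plcg1-/-Plcg2+/+ (66.5% to 87.3%) and Plcg1+/+Plcg2-/- ones (63.8% to 75.8%). In these 4 comparisons genotype and the share cannot be told apart. The other 2 against the double-deficient groups overlapped. Flt3, a receptor of early progenitors, was at 25.8 to 735 normalized CPM (read counts scaled to library size) in CLP libraries and at 28.4 to 111 in B cell progenitor libraries, and none of 10 B cell progenitor markers and none of 7 CLP markers passed the test between the populations of control mice, where 3.5% of all genes did. Whole-gene counts of Plcg2 followed the labels, with 196 to 282 CPM in control CLPs against 98.6 to 115 in double-deficient CLPs, and 211 to 247 against 72.1 to 111 in B cell progenitors. Plcg1 counts, which cannot show the loss of a floxed part of the gene, did not separate the Plcg1 genotypes, and these were taken from the labels. All 12 libraries labelled Plcg1-/- held 1294 to 2314 CPM of Xist, the transcript of the inactive X chromosome, against 23.6 to 743 in the others, so that sex-linked differences and the Plcg1 genotype cannot be told apart.

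The upstream sequence of Klf2, Klf4 and Klf13, the 3 members with the lowest log2 fold changes in double-deficient B cell progenitors, is shown first, since the family itself binds such GC-rich stretches. Each run covers the 250 bases before the RefSeq transcription start in GRCm38.p6, read 5′ to 3′ on the strand of the gene. Capitals mark the GC box (GGGCGG or its complement CCGCCC), the CACCC box (CACCC or GGGTG) and a match to the MEF2 consensus. Klf2 lies on the plus strand at chr8:72318812-72319061, Klf4 on the minus strand at chr4:55532476-55532725 and Klf13 on the minus strand at chr7:63938916-63939165.
Klf2: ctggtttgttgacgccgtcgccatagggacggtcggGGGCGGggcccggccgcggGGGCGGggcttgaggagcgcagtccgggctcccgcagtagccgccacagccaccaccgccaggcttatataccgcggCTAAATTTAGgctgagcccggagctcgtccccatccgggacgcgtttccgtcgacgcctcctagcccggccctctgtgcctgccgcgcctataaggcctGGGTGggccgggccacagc
Klf4: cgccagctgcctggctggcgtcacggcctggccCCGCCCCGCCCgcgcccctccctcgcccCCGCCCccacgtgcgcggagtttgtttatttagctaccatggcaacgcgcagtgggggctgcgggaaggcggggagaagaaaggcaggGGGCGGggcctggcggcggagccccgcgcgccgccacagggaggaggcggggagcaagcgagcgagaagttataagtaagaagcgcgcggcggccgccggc
Klf13: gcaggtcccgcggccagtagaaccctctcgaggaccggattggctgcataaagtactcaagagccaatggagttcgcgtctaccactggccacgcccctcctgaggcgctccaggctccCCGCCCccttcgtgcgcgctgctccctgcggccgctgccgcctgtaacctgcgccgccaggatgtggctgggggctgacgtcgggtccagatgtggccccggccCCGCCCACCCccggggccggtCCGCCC
The Klf2 promoter held the MEF2 consensus from base 118 to base 109 before the start, which is found on either strand in 2.89% of 32544 promoters of this length, as well as 2 GC boxes and 1 CACCC box. Klf4 held 4 GC boxes, of which the first and second share 1 base, and Klf13 held 3 GC boxes and 1 CACCC box, the latter sharing 1 base with a GC box. Of all such promoters, 33% held a GC box and 52.1% a CACCC box. GC boxes also lay before Klf3, Klf6 and Klf7, and CACCC boxes before Klf3 and Klf7. Klf3, with a log2 fold change of 0.37 in double-deficient B cell progenitors, held more of both boxes than any gene shown. The FOXO core TGTTTAC and the CArG box, found in 3.17% and 1.48% of all promoters, were searched on both strands as well and matched none of the promoters of the 6 members that had one in the RefSeq table. These matches are descriptions of letters and no factor was measured on them.

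On a scale that allows genes to be compared, normalized CPM per kilobase of exon, Klf2 had the highest mean of the 7 genes in all 8 groups, at 210.1 ± 104 (SD, n = 3) in control B cell progenitors. Klf6 or Klf4 followed, at 71.1 ± 50.2 and 71.8 ± 39.7 (SD, n = 3) in the same group, and did not differ beyond their spread. Klf13 at 38.3 ± 5.43 and Klf10 at 25.8 ± 14.4 per kilobase (SD, n = 3) came next. Klf3, at 3.91 ± 1.85 per kilobase, and Klf7, at 0.441 ± 0.0205 per kilobase (SD, n = 3), had the sixth and the lowest mean in every group. Klf7 lay near the limit of the depth in the shallowest library, with 3 reads there. All 7 genes passed edgeR's filter on low counts in every fit.

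**Figure D1:**
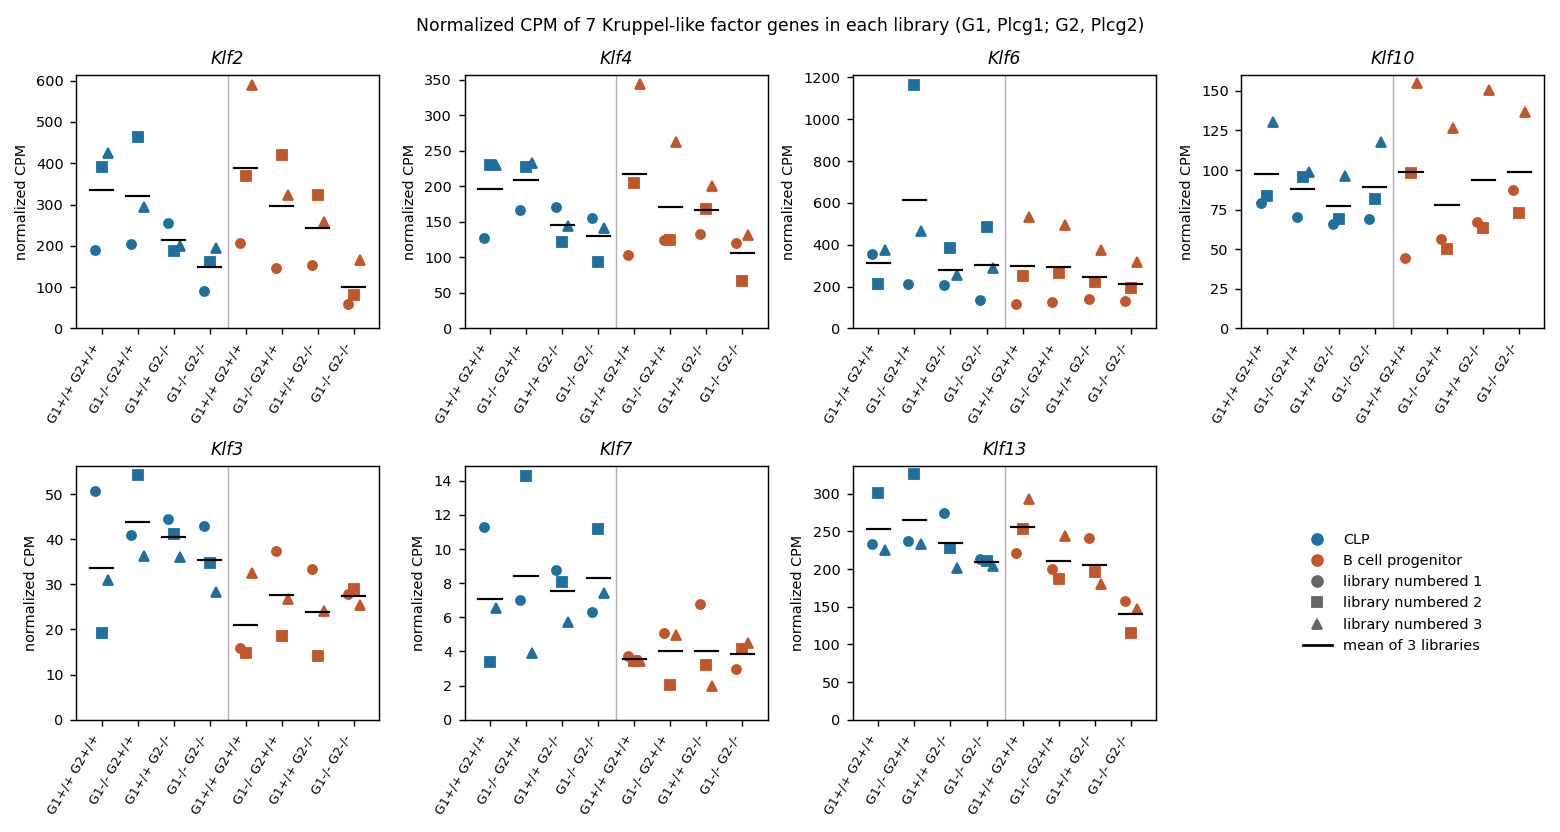
Normalized CPM of the 7 genes in each of the 24 libraries, 1 panel a gene, with the 4 genotypes of CLPs at the left and of B cell progenitors at the right of each panel (G1, Plcg1; G2, Plcg2). Points are libraries, their shape is the replicate number and the bar is the mean of 3. The double-deficient B cell progenitors lie below the control ones for Klf2 and Klf13. For Klf4, Klf6 and Klf10 the B cell progenitor library numbered 3 is the highest of each genotype.

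The first question was whether loss of both enzymes changed the factors in B cell progenitors. Of the 7 genes, 1 fell, Klf13, and 0 rose, where 0.893% of 15001 genes passed in either direction (quasi-likelihood test of edgeR, with Benjamini-Hochberg adjusted p up to 0.05 and a log2 fold change of 0.5 or more either way). The median log2 fold change was -0.48 over the 7 genes and -0.02 over all genes tested. The ranges of the libraries were wholly below the control in 2 of the 7, Klf2 and Klf13, where 19.2% of all genes had ranges that did not overlap.

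Klf13, on chromosome 7, had 221, 253 and 293 normalized CPM in the 3 control B cell progenitor libraries and 157, 115 and 147 in the double-deficient ones. Every double-deficient library was below every control library. The means were 255 ± 36.2 and 139.9 ± 22.2 CPM (SD, n = 3). Klf13 thus fell 1.83-fold, at a log2 fold change of -0.87 (SE 0.17, edgeR adjusted p = 0.035). The call was lost whichever of the 6 libraries was left out, with the log2 fold change between -0.96 and -0.74 and adjusted p from 0.0504 to 0.218. The means of both single-deficient groups lay between these. Plcg1-/-Plcg2+/+ B cell progenitors had 199.8, 187 and 244 CPM, a log2 fold change of -0.26 (SE 0.17, adjusted p = 0.483) against the control, and Plcg1+/+Plcg2-/- ones had 241, 196 and 181 CPM, a log2 fold change of -0.29 (SE 0.17, adjusted p = 0.919). The double-deficient libraries were also wholly below both single-deficient groups, by log2 fold changes of -0.61 (SE 0.17, adjusted p = 0.167) and -0.58 (SE 0.17, adjusted p = 0.333), neither past the threshold. In these 2 comparisons 0.213% and 0.153% of genes were called and 16.8% and 13.4% had ranges that did not overlap, and 0 of the 7 genes were called. DESeq2 called Klf13 against the Plcg1-/-Plcg2+/+ group (adjusted p = 0.0314). Klf13 encloses E030018B13Rik, a counted gene on the opposite strand that shares 0 exonic bases with it.

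Klf2, on chromosome 8, had the lowest log2 fold change of the 7 genes in this comparison. Control B cell progenitors had 206, 369 and 588 CPM and double-deficient ones 58.0, 80.3 and 166. No double-deficient library reached the lowest control. The log2 fold change of -1.93 (SE 0.50, unadjusted p = 0.00221), which is 3.8-fold lower, did not pass the threshold over all genes (edgeR adjusted p = 0.125), with means of 388 ± 192 and 101 ± 57.0 CPM (SD, n = 3). DESeq2 on the same libraries called it (adjusted p = 0.00287). So did edgeR with the library number as a block (adjusted p = 0.00279), although these numbers were not taken to pair the genotypes. It was also called by edgeR without the 4 libraries numbered 1 (adjusted p = 0.0259), an alternative chosen after the values were seen. Without the libraries numbered 2 or those numbered 3, edgeR did not call it (adjusted p = 0.293 and 0.622). Klf2 was called in 0 of the 6 fits that left out 1 library (adjusted p from 0.1 to 0.353). Plcg1-/-Plcg2+/+ B cell progenitors had 145, 421 and 322 CPM, and Plcg1+/+Plcg2-/- ones 154, 322 and 258 CPM. Both single-deficient groups overlapped the control, with log2 fold changes of -0.36 (SE 0.48, adjusted p = 0.704) and -0.64 (SE 0.48, adjusted p = 0.919). Against these groups the double-deficient log2 fold change was -1.56 (SE 0.49, adjusted p = 0.173) and -1.28 (SE 0.49, adjusted p = 0.396), with overlapping ranges. The first of these was called by DESeq2 (adjusted p = 0.0279), by edgeR with the library number as a block (adjusted p = 0.0279) and by edgeR without the libraries numbered 1.

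Klf4, on chromosome 4, had 104, 205 and 344 CPM in control B cell progenitors and 121, 66.3 and 132 in double-deficient ones, so the groups overlapped through the lowest control library. Its log2 fold change was -1.03 (SE 0.42, unadjusted p = 0.0289, adjusted p = 0.336). Plcg1-/-Plcg2+/+ libraries spanned 125 to 262 CPM and Plcg1+/+Plcg2-/- libraries 132 to 201 CPM. Against these, the double-deficient log2 fold changes were -0.71 (SE 0.42, adjusted p = 0.446) and -0.67 (SE 0.42, adjusted p = 0.593), the second with the double-deficient libraries wholly below.

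The other 4 genes did not pass the test in double-deficient B cell progenitors, and their ranges overlapped the control. The log2 fold change was -0.48 (SE 0.58) for Klf6, 0.00 (SE 0.48) for Klf10, 0.37 (SE 0.36) for Klf3 and 0.14 (SE 0.46) for Klf7. The approximate 95% intervals from the SE reached from -1.62 to 0.65 for Klf6 and from -0.94 to 0.95 for Klf10, so changes within them were not excluded with this spread.

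**Figure D2:**
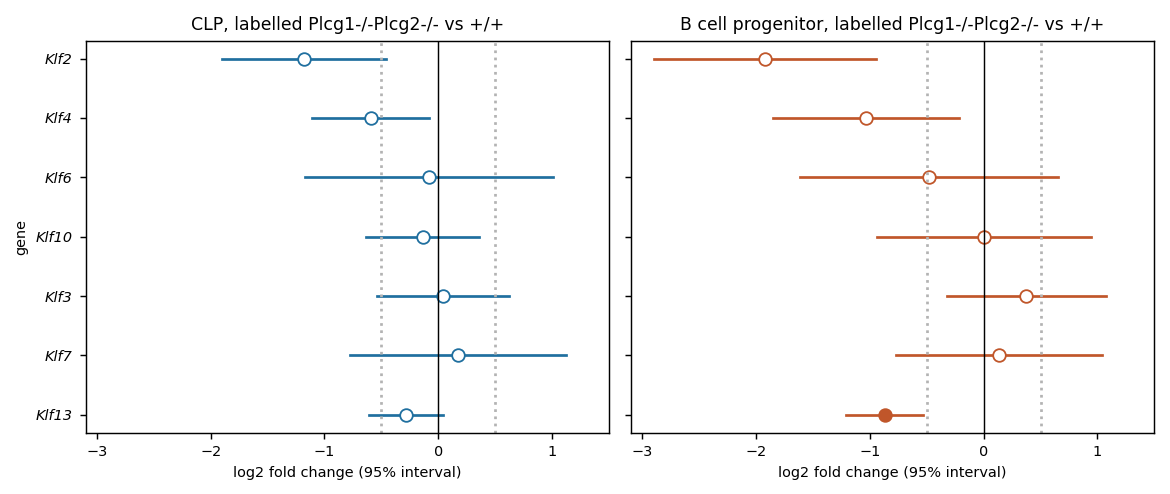
Log2 fold change of each gene in double-deficient against control cells, with its 95% interval, for CLPs at the left and B cell progenitors at the right. A filled point passed the test, which only Klf13 in B cell progenitors did, and dotted lines mark a log2 fold change of 0.5 in either direction. Klf2 has the lowest estimate in both populations.

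Markers of other cells and of the sorted populations are given beside these values. The mature B cell list summed to 503 to 781 CPM in control B cell progenitors and to 149 to 393 CPM in double-deficient ones, with 5 of 5 tested members below zero and 1 called, where 0.893% of all genes were, the inhibitory receptor gene Cd22 (log2 fold change -1.62, SE 0.24, adjusted p = 0.00747). The myeloid list summed to 1661 to 5064 CPM in the control and 2998 to 8169 CPM in double-deficient cells, with 9 of 9 members above zero and 0 called. No marker of these 2 lists was at 0 in any library. The macrophage list had summed levels of 29.0 to 54.9 CPM in the control and 55.6 to 95.9 CPM in double-deficient cells, which did not overlap, with 6 of 6 members above zero and 0 called. T and NK cell markers summed to 53.7 to 109 and 52.7 to 204 CPM, with 7 of 7 above zero and 0 called. Erythroid markers summed to 699 to 861 and 452 to 662 CPM, which did not overlap either, with 4 of 5 tested members above zero and 0 called. Of the macrophage list Cd5l was at 0 in 1 of 24 libraries, and of the erythroid list Hba-a1 was at 0 in all 24. CLP markers summed to 1199 to 1563 CPM in the control and 1050 to 3264 CPM in double-deficient cells, with 5 of 7 above zero and 0 called. B cell progenitor markers summed to 3788 to 5354 and 2507 to 8886 CPM, with 7 of 10 above zero and 0 called. The part of all these markers in the Klf2, Klf4 and Klf13 values was not tested. In sorted bulk samples, fewer cells of a type and less RNA per cell cannot be told apart.

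The same comparison in CLPs called 0 of the 7 genes, where 0.0921% of 15209 genes were called and 13.6% had ranges that did not overlap. The median log2 fold change of the 7 was -0.14, against -0.03 over all genes tested. Klf2 had 191, 391 and 425 CPM in control CLPs and 89.8, 162 and 194 in double-deficient ones, and the groups overlapped at the lowest control library. Its log2 fold change was -1.18 (SE 0.37, unadjusted p = 0.00788, adjusted p = 0.407). Klf4 had 127, 231 and 230.2 CPM against 155, 93.2 and 141, a log2 fold change of -0.60 (SE 0.26, adjusted p = 0.652). The control library numbered 1, the lowest control for Klf2 and Klf4, held a summed 4325 CPM of CLP markers against 1486 and 1448 in the other controls, and 1034 CPM of B cell progenitor markers against 5701 and 4320. Without it the log2 fold change was -1.48 (adjusted p = 0.14) for Klf2 and -0.84 (adjusted p = 0.22) for Klf4. These were the lowest of the 6 fits that left out 1 library. The highest were -0.94 (adjusted p up to 0.864) for Klf2 and -0.40 (adjusted p up to 0.97) for Klf4. The libraries numbered 2 of Plcg1-/-Plcg2+/+ and Plcg1+/+Plcg2-/- CLPs held 3532 and 3304 CPM of CLP markers, with 464 and 187 CPM of Klf2. The double-deficient library numbered 2 held 2550 CPM of them, against 1132 and 1645 in the others of its group, with 162 CPM of Klf2. The part of this makeup in the values was not tested. Klf13 had 233, 302 and 226 CPM against 213, 210.4 and 204, so the double-deficient libraries were wholly below the control, by a log2 fold change of -0.29 (SE 0.17, adjusted p = 0.724). The other 4 genes had log2 fold changes of -0.08 (SE 0.55) for Klf6, -0.14 (SE 0.26) for Klf10, 0.04 (SE 0.29) for Klf3 and 0.17 (SE 0.48) for Klf7. The mature B cell list summed to 296 to 951 CPM in control and 196 to 433 CPM in double-deficient CLPs, and the myeloid list to 2586 to 4539 and 3988 to 9295 CPM. The macrophage list summed to 36.7 to 59.7 and 67.5 to 83.0 CPM and the erythroid list to 526 to 738 and 385 to 468 CPM, neither overlapping, and the T and NK cell list to 66.5 to 365 and 126 to 214 CPM. None of these markers was called. Their part was not tested here either.

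Single deficiency in CLPs gave 0 calls among the 7 genes, where 0.00658% of genes were called for Plcg1-/-Plcg2+/+ and 0% for Plcg1+/+Plcg2-/-. All 7 overlapped the control in both groups, where 6.01% and 7.75% of genes did not. Klf2 had 205, 464 and 294 CPM in Plcg1-/-Plcg2+/+ CLPs, a log2 fold change of -0.07 (SE 0.36, adjusted p = 0.9996). In Plcg1+/+Plcg2-/- CLPs it had 256, 187 and 198 CPM, a log2 fold change of -0.64 (SE 0.36, adjusted p = 0.939). Klf13 differed by 0.06 (SE 0.17) and -0.11 (SE 0.17) on the log2 scale in these groups. For comparison, 0.06% and 0.0467% of genes were called in the single-deficient B cell progenitors, and again 0 of the 7. There 19.3% and 9.18% of genes had ranges that did not overlap, and 0 of the 7.

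Double-deficient CLPs were set against each single-deficient group as well, with 0.0263% and 0.0526% of genes called and 0 of the 7. Against Plcg1-/-Plcg2+/+ CLPs the double-deficient libraries lay wholly below for 3 genes, Klf2, Klf4 and Klf13, where 9.03% of genes had ranges that did not overlap. The log2 fold changes were -1.11 (SE 0.37, adjusted p = 0.802), -0.69 (SE 0.26, adjusted p = 0.9996) and -0.35 (SE 0.17, adjusted p = 0.9996). Against Plcg1+/+Plcg2-/- CLPs, where the non-overlapping share was 14.4%, all 7 genes overlapped, with log2 fold changes of -0.54 (SE 0.36) for Klf2, -0.17 (SE 0.26) for Klf4 and -0.18 (SE 0.17) for Klf13. The comparisons of the double-deficient group share its libraries and are set side by side only.

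**Figure D3:**
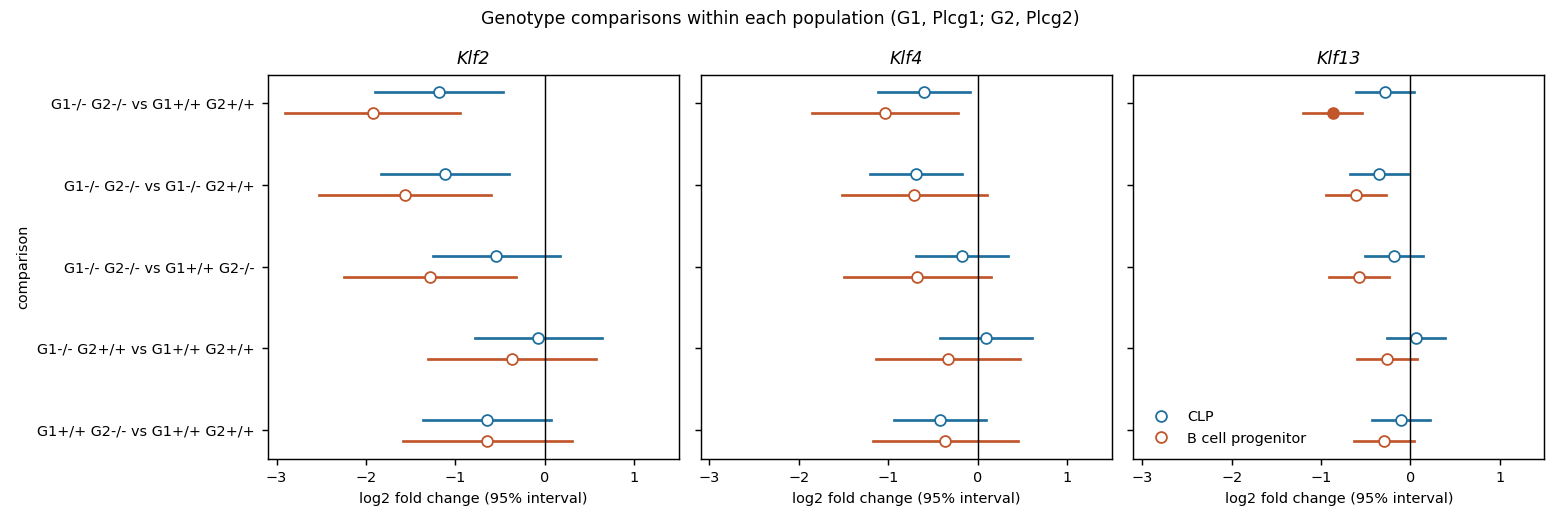
Log2 fold change with its 95% interval for Klf2, Klf4 and Klf13 in the 5 genotype comparisons of each population (G1, Plcg1; G2, Plcg2), CLPs in blue and B cell progenitors in orange. The filled point is the 1 comparison that passed the test, and the 3 comparisons that include the double-deficient group have estimates below zero for all 3 genes in both populations.

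Whether the effect of double deficiency differed between the populations was tested directly as an interaction. It was called for 0% of 17212 genes by edgeR, of which 1.37% had an unadjusted p of at most 0.05. For Klf13 the effect in B cell progenitors minus that in CLPs was -0.59 on the log2 scale (SE 0.25, unadjusted p = 0.0251, adjusted p = 0.9998). For Klf2 it was -0.76 (SE 0.65, adjusted p = 0.9998) and for Klf4 -0.45 (SE 0.52, adjusted p = 0.9998). The call for Klf13 in B cell progenitors alone therefore does not show a difference between the populations.

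The populations themselves were compared within each genotype, with the 2 libraries that share an identifier treated as separate. None of the 7 genes was called in control, Plcg1-/-Plcg2+/+, Plcg1+/+Plcg2-/- or double-deficient mice, where 3.5%, 3.78%, 3.21% and 3.24% of 17212 genes were called. Klf7, a factor known from neurons and progenitor cells, had 3.41 to 14.3 CPM over all CLP libraries and 2.00 to 6.78 over all B cell progenitor libraries. Its log2 fold change in B cell progenitors against CLPs was -1.03 (SE 0.47), -1.08 (SE 0.48), -0.92 (SE 0.50) and -1.07 (SE 0.48) in those 4 genotypes, with adjusted p from 0.162 to 0.381. The ranges were wholly below in double-deficient mice alone, and the value for Plcg1+/+Plcg2-/- turned to 0.01 when counts were thinned to the smallest library, where Klf7 had few reads. Klf7 shares 3196 exonic bases with Gm26649 on the opposite strand, a gene that was not counted separately, and as the library kit does not mark the strand, reads on these bases cannot be told apart. Klf3 had 19.3 to 54.2 CPM over CLP libraries and 14.1 to 37.4 over B cell progenitor libraries. Its log2 fold changes were -0.68 (SE 0.35), -0.67 (SE 0.35), -0.81 (SE 0.36) and -0.36 (SE 0.35), adjusted p 0.222 to 0.720, wholly below in Plcg1+/+Plcg2-/- mice only. Klf6 had log2 fold changes of -0.07 (SE 0.61), -1.06 (SE 0.62), -0.20 (SE 0.62) and -0.50 (SE 0.61), adjusted p 0.266 to 0.983, with overlapping ranges. The Klf6 value in control mice turned positive in 4 of the 6 fits that left out 1 of its libraries. Klf13 differed between the populations by 0.01 (SE 0.17) in control mice and by -0.58 (SE 0.17, adjusted p = 0.0781) in double-deficient mice, where the ranges did not overlap. Ranges that did not overlap were found for 20.9%, 23.5%, 18.3% and 21.3% of genes in the 4 genotypes, in the same order.

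**Figure D4:**
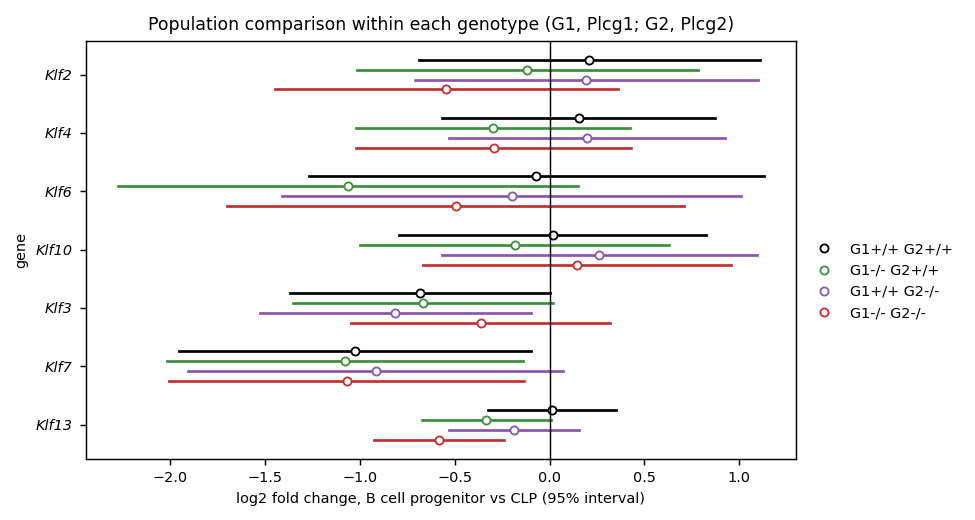
Log2 fold change of each gene in B cell progenitors against CLPs, with its 95% interval, in each of the 4 genotypes (G1, Plcg1; G2, Plcg2). All points are open because none passed the test. The Klf3, Klf6 and Klf7 estimates are below zero in all 4 genotypes (in control mice Klf6 turned with libraries left out), whereas Klf2, Klf4 and Klf10 lie on both sides of zero.

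Klf6 and Klf10, both rapidly induced by stimuli, spread widely between the libraries of a group. In B cell progenitors, Klf6 had 116, 252 and 532 CPM in the control, 125, 263 and 493 in Plcg1-/-Plcg2+/+ and 132, 192 and 317 in double-deficient libraries numbered 1, 2 and 3. The library numbered 1 was the lowest and the library numbered 3 the highest in 4 of 4 genotypes. In CLPs the library numbered 2 was the highest for Klf6 in 3 of 4 genotypes, up to 1161 CPM in a Plcg1-/-Plcg2+/+ library. Klf10 was highest in the library numbered 3 in 4 of 4 genotypes of each population, at 96.2 to 130.4 CPM in CLPs and 127 to 155 CPM in B cell progenitors, with 44.3 to 97.8 CPM in the other B cell progenitor libraries. The sources do not say that libraries of 1 number were handled together.

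The summed level of 14 immediate early genes such as Fos and Jun, the usual sign of a fresh stimulus or of tissue handling, had its lowest library at number 1 and its highest at number 3 in the same 4 B cell progenitor genotypes, with 1827 to 2996 CPM at the lowest and 7064 to 9917 at the highest. In CLPs the sum was highest in the library numbered 2 in 3 of 4 genotypes and in the library numbered 3 in 0 of 4, unlike Klf10. None of the 14 was called between double-deficient and control cells of either population. Their part in the Klf6 and Klf10 values was not tested. In B cell progenitors Klf2 was lowest in the library numbered 1 in 4 of 4 genotypes, and Klf4 was highest in the library numbered 3 in 4 of 4. The pattern by library number thus ran through the spread of Klf2 and Klf4 too.

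**Figure D5:**
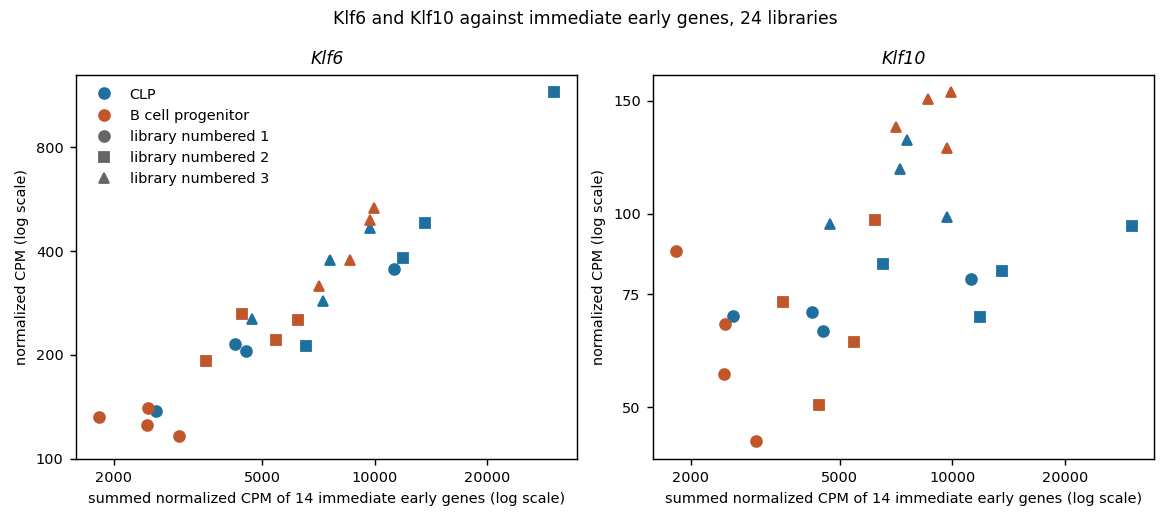
Normalized CPM of Klf6 and Klf10 against the summed normalized CPM of 14 immediate early genes in the 24 libraries, both axes on a log scale, coloured by population and shaped by library number. Klf6 is higher where the sum is higher, up to the CLP library with 1161 CPM, and within each population the Klf10 points of libraries numbered 3 stand above the others.

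The genes whose log2 CPM was most like each factor over the 24 libraries are given as a description, since libraries share depth, cell makeup and handling. Klf6 was most like Fos (Pearson r = 0.956), Dusp1 (0.945) and Nfkbiz (0.941), and the first of these held within CLPs (0.954) and within B cell progenitors (0.963). Klf2 was most like Ets2 (0.889), Ier5l (0.873) and Btg1 (0.861). Klf4 was most like Hlx (0.878), Cdt1 (0.818) and Slco4a1 (0.791), and Klf10 most like Pmaip1 (0.9), Ccl2 (0.869) and Tnfsf9 (0.865). Klf3 was most like Hlcs (0.946), Gaa (0.941) and Bin2 (0.938), and Klf7 most like Arhgap4 (0.928), Kidins220 (0.909) and Phf21a (0.909). Klf13 had the loosest match, with Ehbp1l1 (0.814), Whrn (0.795) and Irf2bp2 (0.787). Among the 7 genes, the highest correlations over the 24 libraries were between Klf3 and Klf7 (0.748), Klf2 and Klf4 (0.739), and Klf4 and Klf13 (0.69). Within CLPs these pairs were at 0.713, 0.729 and 0.598, and within B cell progenitors at 0.464, 0.742 and 0.761. The highest pair within B cell progenitors was Klf6 and Klf10 (0.789), which was at 0.391 within CLPs.

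The 10 other Krüppel-like factor genes on the list, of which 7 passed the filter in CLPs and 8 in B cell progenitors, gave 0 calls in all 15 comparisons. Klf14 and Klf15 were each at 0 in 10 of 24 libraries. Over the 24 libraries Klf11, a relative of Klf10, spanned 24.8 to 116 CPM and Klf16 18.7 to 46.6 CPM, Klf9 reached 39.6 CPM, and the erythroid factor Klf1 spanned 2.16 to 30.8 CPM. Klf8, named after its values were seen, was the 1 gene of this list wholly above the control in double-deficient cells of both populations, by a log2 fold change of 1.09 (SE 0.26, adjusted p = 0.217) in CLPs and 0.73 (SE 0.26, adjusted p = 0.266) in B cell progenitors, where 13.6% and 19.2% of all genes had ranges that did not overlap. Of 9 Sp factor genes, which bind the same GC boxes, 5 were tested within each population and 0 were called between genotypes. Sp3 alone was called between populations, higher in control B cell progenitors than in CLPs (log2 fold change 0.58, SE 0.11, adjusted p = 0.00201).

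Transcripts of the pathway around Klf2 were read from 2 short lists, and the activity of the encoded proteins was not measured. Upstream, 0 of 7 genes that lead to Klf2 (Foxo1, Foxo3, Map2k5, Mapk7, Mef2a, Mef2c and Mef2d) were called in any comparison, and in double-deficient B cell progenitors their log2 fold changes lay between -0.23 for Mef2d and 0.25 for Foxo1. Downstream, neither of the homing receptor genes S1pr1 and Itgb7 was called. S1pr1, the sphingosine-1-phosphate receptor, was at a mean of 46.5 CPM in control and 29.7 CPM in double-deficient B cell progenitors (log2 fold change -0.63, SE 0.28, adjusted p = 0.379). The integrin gene Itgb7 had a log2 fold change of 0.95 (SE 0.63, adjusted p = 0.553) in the same comparison. Of 6 genes of co-repressors that these factors recruit, among them Ctbp1, Sin3a and Hdac2, 0 were called between genotypes.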

How the data were processed

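Poly(A) RNA of 24 libraries, 12 of each population, was sequenced on a NextSeq 500 after NEBNext Ultra preparation, which does not mark the strand. The deposited values were whole-number read counts per gene, which the authors made from reads aligned with STAR 2.5.0a to mm10 with RefSeq genes. The counting program and its strand setting are not given in the sources used here. The rows for reads on no gene and for ambiguous reads (0.11% to 1.44%) were kept out of library sizes and tests.

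Counts were scaled by TMM and tested with edgeR 4.0.16 (R 4.3.3; quasi-likelihood F test, genes kept by filterByExpr) over the 12 libraries of a population, and over all 24 for comparisons between populations and the interaction. P-values were adjusted by Benjamini-Hochberg over all genes tested, and a gene was called where its adjusted p was 0.05 or lower and its log2 fold change 0.5 or more either way. All p-values in the report come from this edgeR model unless DESeq2 1.42.0 is named. SEs were taken from the log2 fold change and its F statistic. The 95% intervals are a normal approximation from these SEs and are narrower than the F test allows. An interval wholly below zero can therefore go with an unadjusted p above 0.05, and calls rest on the F test alone. Normalized CPM used the TMM-scaled libraries of all 24. Genes most like a member were the 3 with the highest Pearson correlation of log2 CPM (prior count 2) among genes with a mean CPM of at least 1. The 7 genes are named throughout, and list genes where called or, in a list with no call, where among its 4 with the highest mean CPM. Xist, Flt3, Klf8, Klf14, Klf15 and single genes of the Klf2 and co-repressor lists were named outside this rule, with their values known. Some members of these lists are not reported here. The members and the lists were chosen with earlier results of these data known.

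Libraries of both populations were paired by the identifier that their titles share, read as the mouse, which the sources do not state outright. Their deviations from the group means had a mean correlation of 0.114 (-0.35 to 0.53 over 12 pairs), and the fit with the mouse as a block is among the alternatives. Replicates were no copies of each other. Alternatives were other size factors, no filter, DESeq2, counts thinned to the smallest library, the compared groups alone, a replicate block and libraries left out. The scripts were tested on simulated data. Gene lengths came from GENCODE vM21 basic and promoters from RefSeq, both on GRCm38 (mm10). 6 of the 7 genes matched a promoter.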

Additional observations from a re-analysis of the deposited data

How the results depend on the processing

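Among the 7 genes, the number called changed with the method in 3 of 15 comparisons. For double-deficient against control B cell progenitors (1 call, Klf13), DESeq2 called 2 (Klf13 and Klf2) and so did the fit with a replicate block of the library number, which called 550 genes against 134 (Klf2 adjusted p = 0.00279). Leaving libraries out gave 0 to 1 calls, and the 1 without the libraries numbered 1 was Klf2. For double-deficient against Plcg1-/-Plcg2+/+ B cell progenitors (0 calls), DESeq2 called 2, the replicate block 1 (Klf2, adjusted p = 0.0279) and leaving libraries out 0 to 1. For double-deficient B cell progenitors against CLPs (0 calls), DESeq2 called 1, Klf13 (adjusted p = 0.0291). Libraries with the same number correlated at 0.205 on average in CLPs (-0.196 to 0.612) and at 0.0615 in B cell progenitors (-0.528 to 0.658), and 12 and 8 of 18 such pairs were over 0.1, so the numbers were not taken to pair genotypes. As a hint from the data, 10 of 12 CLP and 7 of 12 B cell progenitor libraries correlated best with their own number, and the 9 CLP pairs among the deficient genotypes were at 0.204 to 0.612. The replicate block of the mouse, run in the 5 comparisons that involve both populations, gave 0 calls among the 7 genes in each, as without it.

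Under other size factors, no filter, DESeq2 or thinning, Klf2 in double-deficient against control B cell progenitors had adjusted p of 0.116, 0.0868, 0.00287 and 0.118. Direction turned for some values. Klf3 in double-deficient CLPs came to -0.00323 when thinned, Klf10 in double-deficient B cell progenitors to -0.00619 with no filter, and Klf7 between populations of Plcg1+/+Plcg2-/- mice to 0.0132 when thinned. Klf13 between populations of control mice came to -0.00819 with RLE size factors, -0.00121 with no filter, -0.0063 with DESeq2 and -0.0384 when thinned. With libraries left out, the log2 fold change in double-deficient against control CLPs ranged from -0.20 to 0.45 for Klf3, -0.75 to 0.40 for Klf6, -0.35 to 0.85 for Klf7 and -0.39 to 0.13 for Klf10, and in B cell progenitors from -0.88 to 0.24 for Klf6 and -0.35 to 0.51 for Klf10. In Plcg1-/-Plcg2+/+ against control it ranged from -0.41 to 0.18 for Klf2 and -0.10 to 0.21 for Klf13 in CLPs, and from -0.76 to 0.00708 for Klf2 in B cell progenitors. It ranged from -0.31 to 0.0553 for Klf13 in Plcg1+/+Plcg2-/- CLPs, -0.31 to 0.0481 for Klf4 in double-deficient against Plcg1+/+Plcg2-/- CLPs, -0.0873 to 0.15 for Klf13 between control populations and -0.83 to 0.0173 for the Klf4 interaction. The causes were not tested. Of 105 gene and comparison values, 57 changed sign under some alternative, the largest of them 0.946 in absolute log2 fold change. Shallow B cell progenitor libraries limit Klf7 most.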
